A study of Mus musculus with 12 samples.

Results

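H3K27me3 was profiled in mESCs carrying tSBE(6+2)-Vp64, a TALE-Vp64 activator directed to the Shh enhancers SBE6 and SBE2 together, and in the mESCs that the titles name eGFP, the control. The members of the comparison are the arrays that the sample titles name, R1 and R2 of tSBE(6+2)-Vp64 and R1 and R2 of the second biological replicate of eGFP, 4 of the 12 arrays in the series. All cells were 46c mESCs, a mouse embryonic stem cell line, cultured in GMEM. The tSBE(6+2)-Vp64 cells were transfected, with Lipofectamine 2000; the study describes its control as ESCs transfected with eGFP, though the characteristics of these eGFP arrays list no transfection. A TALE is a DNA-binding protein that can be designed for a chosen sequence, and Vp64 is a viral transcriptional activation domain; per the study's methods its TALE-Vp64 constructs also carry eGFP behind a 2A peptide, by which transfected cells were sorted. The H3K27me3 fraction of MNase-digested native chromatin was hybridised, with input DNA in the other dye, to a tiling array of 48316 probes in 39 regions. The other arrays of the series held mESCs with tShh-Vp64, tSBE6-Vp64 or tSBE2-Vp64, each with a single target, and neural progenitor cells (NPCs).

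The comparison has limits that apply to every value. The labels give R1 and R2 of eGFP the same biological replicate and say nothing of the culture behind R1 and R2 of tSBE(6+2)-Vp64, so that each condition is 1 sample. Both tSBE(6+2)-Vp64 arrays, with the NPC arrays, were on slide 2 and all other arrays were on slide 1; slide and condition therefore cannot be told apart. In the Cy3 channel, 58.2% (R1) and 73.8% (R2) of probes were well above background on the tSBE(6+2)-Vp64 arrays against 92.8% and 91.4% on the eGFP arrays, while in the Cy5 channel these shares were 83.2% and 87.2% against 88.7% and 86.0%. Probe values of R1 and R2 had a Pearson correlation of 0.791 for tSBE(6+2)-Vp64 and of 0.846 for eGFP. The values are log2 ratios of the Cy5 over the Cy3 signal, centred on the median of each array. This is the direction of the authors' deposited ratios; the sample labels assign the ChIP DNA to Cy3, and by those labels the log2 ratios, and the differences between the conditions in them, have the opposite sign. In the direction used, mean promoter log2 ratios of the 10 genes of the Hoxd cluster, Evx2 included, were 1.58 to 2.38 in eGFP. Those of Gapdh, Actb and Rad21 were -0.49, -0.32 and -0.97.

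H3K27me3 is the histone mark deposited by polycomb repressive complex 2. In embryonic stem cells it covers the promoters of many silent developmental regulators, often at CpG-rich sequence, and is scarce at genes that every cell transcribes. Shh encodes the Sonic hedgehog ligand, whose expression in the embryonic brain and spinal cord depends on enhancers spread over a long domain upstream of the gene, the SBE elements among them. In responding neural cells hedgehog signalling induces ventral regulators such as Foxa2, Nkx2-2 and Olig2, and also its own receptor Ptch1. Loss of H3K27me3 over a gene is often seen when that gene is activated.

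Promoter sequences of 2 genes that the results return to are shown to let their CpG content be compared, since the mark is linked to it. Each is the 250 bases upstream of the annotated TSS, read 5′ to 3′ on the minus strand of mm9, with CpG dinucleotides in capitals. The Shh sequence holds 3 CpGs at a GC content of 41.2% and overlaps an exon of the antisense lincRNA gene 9530036O11Rik. That of Bmp4, which encodes a ligand antagonistic to Shh in neural patterning, holds 11 CpGs at 63.2% GC. These bases are a small part of the stretch within 5 kb of the TSS in which each promoter was measured. The GC content over that stretch of Shh was 53.17%, so the sequences do not give the CpG content of the measured promoters.
Shh, chr5:28793642-28793891: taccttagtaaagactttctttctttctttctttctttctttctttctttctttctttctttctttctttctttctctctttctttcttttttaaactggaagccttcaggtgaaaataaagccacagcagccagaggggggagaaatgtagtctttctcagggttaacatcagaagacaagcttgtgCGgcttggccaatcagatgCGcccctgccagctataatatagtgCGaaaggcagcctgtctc
Bmp4, chr14:47010345-47010594: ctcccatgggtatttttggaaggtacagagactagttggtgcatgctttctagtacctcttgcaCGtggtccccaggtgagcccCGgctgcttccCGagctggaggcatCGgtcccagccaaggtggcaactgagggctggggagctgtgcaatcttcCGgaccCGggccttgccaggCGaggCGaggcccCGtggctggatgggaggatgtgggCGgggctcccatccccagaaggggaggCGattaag

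The Shh promoter carried a high log2 ratio in both populations. The window of 5 kb to each side of its TSS held 130 probes, and their mean log2 ratio was 1.45 on R1 and 1.08 on R2 of eGFP, and 1.35 on R1 and 1.42 on R2 of tSBE(6+2)-Vp64. The tSBE(6+2)-Vp64 arrays lay between the eGFP arrays, so the ranges overlapped, and the difference of 0.12 was smaller than the SD between the eGFP arrays, 0.26. That difference was -0.14 after loess and scale normalization and -0.11 after the tSBE(6+2)-Vp64 values were divided by 1.20, their slope on the mean of the other 4 ESC populations across tiles. Among 80 promoter windows measured in the same way, 20 had a larger difference than Shh. By level, Shh was at rank 33 from the top in eGFP and at rank 32 in tSBE(6+2)-Vp64. With the sign turned these ranks were 48 and 49, and 59 promoters had a larger difference. The populations with a single target had 0.90 (tShh-Vp64), 0.97 (tSBE6-Vp64) and 1.06 (tSBE2-Vp64) at this promoter, all on the other slide, and NPCs had 2.20.

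In bins of 1 kb around the TSS, high values ran mostly from about 13 kb downstream of the TSS, past the end of the gene, to about 2 kb upstream of it on all 4 arrays. Of 37 bins with at least 3 probes, both tSBE(6+2)-Vp64 arrays lay above both eGFP arrays in 8 and below both in 7. Between 6 and 7 kb downstream, within the gene, the eGFP arrays had 2.33 and 2.02 and the tSBE(6+2)-Vp64 arrays 1.82 and 1.80. Upstream of the TSS, between 1 and 2 kb, the order was the other way, with 2.46 and 2.02 in eGFP against 2.63 and 2.46 in tSBE(6+2)-Vp64; eGFP R1 and tSBE(6+2)-Vp64 R2 differed there by less than the rounding. The bins between 2 and 4 kb upstream were also higher, by 0.33 and 0.34. Within the gene, the bin 1 to 2 kb downstream was higher too, by 0.41. It had 1.57 and 1.09 in eGFP against 1.69 and 1.79 in tSBE(6+2)-Vp64.

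**Figure D1:**
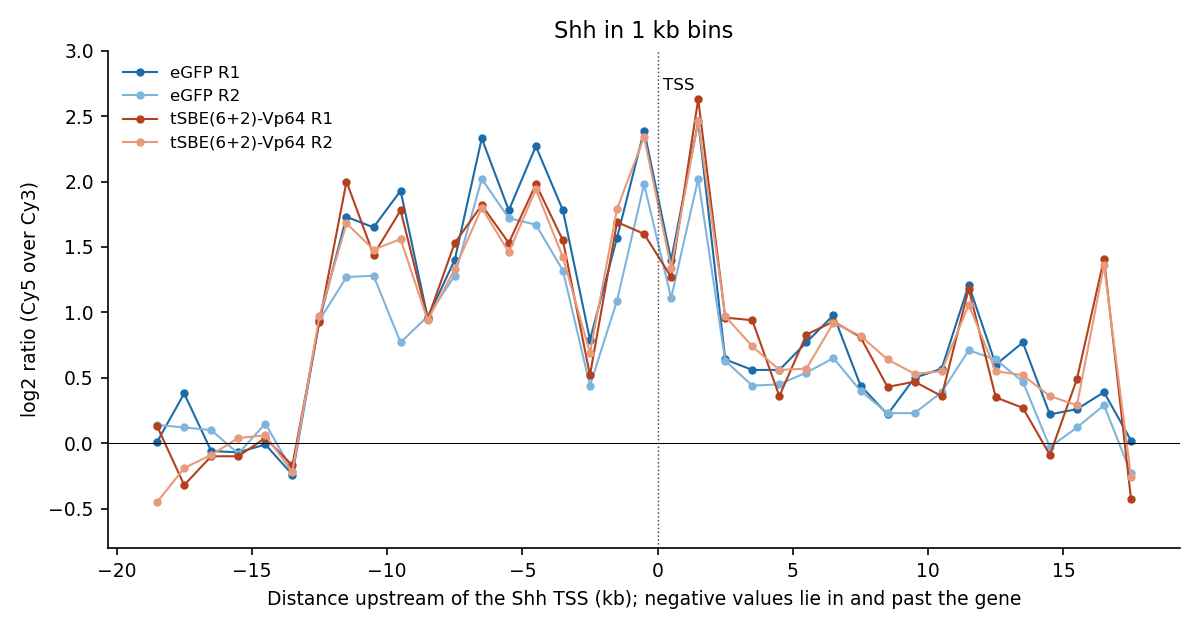
Log2 ratio (Cy5 over Cy3, median-centred) in 1 kb bins around the Shh TSS on R1 and R2 of eGFP and tSBE(6+2)-Vp64 mESCs; each point is the mean of at least 3 probes. Over the gene the conditions overlap in most bins, and R1 and R2 of eGFP split in some (1.93 and 0.77 at 9 to 10 kb downstream). The largest gap between the condition means lies 16 to 17 kb upstream of the TSS, where the tSBE(6+2)-Vp64 mean is 1.05 above the eGFP mean.

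The largest difference near Shh fell between 16 and 17 kb upstream of the TSS, in an intron of 9530036O11Rik at chr5:28809634-28810573. The 7 probes there averaged 0.39 and 0.29 on the eGFP arrays and 1.41 and 1.36 on the tSBE(6+2)-Vp64 arrays, a difference of 1.05. On the 8 arrays of the other populations the mean was 0.33 to 0.65. In 6 of the 7 probes both tSBE(6+2)-Vp64 arrays lay above both eGFP arrays. The difference was 0.79 after loess and scale normalization, 0.79 after normexp background correction and 0.68 in the authors' combined ratios. Relative to the array medians, the Cy3 signal differed by -0.75 and the Cy5 signal by 0.28 on the log2 scale. In the Cy3 channel 42.9% of the probe values were well above background on the tSBE(6+2)-Vp64 arrays, and all of them were on the eGFP arrays. The part of the Cy3 signal in this difference was not tested. Over all 4133 bins of 1 kb on a fixed grid, with at least 5 probes each, none lay 1 or more higher with no overlap between the conditions and 5 lay 1 or more lower; the grid places the probes of this stretch in separate bins.

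The windows at the enhancers that the activator targets had log2 ratios just below 0 in both populations. They were centred at the rounded distances from Shh that the study gives, so the exact target sites may lie off their centres. Within 10 kb of SBE6, 100 kb upstream of Shh and in an intron of 9530036O11Rik, 217 probes gave -0.13 and -0.15 on the eGFP arrays and -0.22 and -0.22 on the tSBE(6+2)-Vp64 arrays. The ranges did not overlap, and the difference of -0.08 kept its sign under every alternative run, from -0.13 to -0.04. Populations with a single target had -0.16 to -0.09 there. Around the position given for SBE2/3, 450 kb upstream, 220 probes were read. The eGFP arrays had -0.11 and -0.12 and the tSBE(6+2)-Vp64 arrays -0.09 and -0.12, a difference of 0.01 with overlapping ranges. The study's discussion puts the farthest recruitment site nearer to Shh than this, so the SBE2 target may lie outside the window.

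Of the enhancers SBE4 and SBE5, which the activator does not target, SBE5 differed more. The SBE4 window (228 probes) differed by -0.0037 with overlapping arrays. NE, a site between Shh and SBE6 that the study chose as a non-enhancer, differed by 0.02 over 131 probes, with the tSBE(6+2)-Vp64 arrays just above the eGFP arrays. SBE5, in an intron of Lmbr1, had -0.73 and -0.63 in eGFP and -0.86 and -0.80 in tSBE(6+2)-Vp64, a difference of -0.15 with no overlap between the arrays. This difference was -0.01 after division by the slope and 0.05 after loess and scale normalization, so its direction depends on the scaling. Of the 80 promoter windows, 56 had a more positive difference than SBE6 and 65 than SBE5.

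Along the tiled region around Shh, from chr5:28466879 to 29826615, differences ran in both directions. Of its 260 tiles of 5 kb, 67 lay higher (25.8%) and 68 lower (26.2%), where a tile is called higher if both tSBE(6+2)-Vp64 arrays lay above both eGFP arrays and lower if both lay below. Over all 963 tiles of the array, those of the Shh region included, these shares were 25.3% (244 tiles) and 28% (270 tiles). The Shh region as a whole thus stood near a background to which it contributes. It also holds 12390 of the 48316 probes on whose median each array was centred. When only probes well above background and not saturated on all 4 arrays were used, 185 tiles lay higher and 320 lower over the whole array. The 2 tiles of the Shh gene overlapped, with 1.78 and 1.40 on the eGFP arrays against 1.55 and 1.62 on the tSBE(6+2)-Vp64 arrays. Between SBE4 and SBE2/3, 11 of 20 tiles lay higher and 0 lower; the mean was -0.08 and -0.07 on the eGFP arrays and -0.00068 and 0.02 on the tSBE(6+2)-Vp64 arrays, a shift of less than 0.1 on the log2 scale. From SBE6 to SBE4, 20 of 47 tiles lay higher and 7 lower.

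The lower tiles were spread over several stretches, with 16 downstream of Shh, 18 between SBE2/3 and Rnf32 and 18 between the TSSs of Rnf32, which encodes a RING finger protein, and Lmbr1, whose introns hold SBE5. In the last of these, 0 of 36 tiles lay higher and 18 lower (50%). Of all tiles of the array with a log2 ratio under -0.5 in the populations with a single target, 59.7% lay lower, and the median difference of those tiles was -0.04 after division by the slope and 0.05 after loess and scale normalization. Between Rnf32 and Lmbr1 the mean was -0.72 and -0.60 on the eGFP arrays and -0.85 and -0.81 on the tSBE(6+2)-Vp64 arrays. With the arrays taken as separate samples (limma, 12 arrays), 6.44% of all tiles were called lower. This fit counts R1 and R2 of a population as independent, so its calls and p-values do not measure the spread between cultures. Of the 154 tiles under -0.5 in the populations with a single target, 40 were. Among the 36 tiles between Rnf32 and Lmbr1, 6 were called lower and 0 higher. The call with the smallest adjusted p, in an exon of Lmbr1 at chr5:29610001-29615000, had -0.60 and -0.41 in eGFP and -0.87 and -0.96 in tSBE(6+2)-Vp64, a difference of -0.41 (SE 0.07, limma adjusted p = 0.00732). The share of Cy3 probe values well above background in that tile was 63.10% in tSBE(6+2)-Vp64 and 98.81% in eGFP.

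Just upstream of the position given for SBE6 the 12-array fit called neighbouring tiles in opposite directions. The tile at chr5:28895001-28900000 had -0.05 and 0.0037 in eGFP and -0.29 and -0.25 in tSBE(6+2)-Vp64, a difference of -0.25 (SE 0.06, limma adjusted p = 0.0211). In the next tile upstream the eGFP arrays had -0.18 and -0.16 and the tSBE(6+2)-Vp64 arrays 0.10 and 0.003, a difference of 0.22 (SE 0.06, limma adjusted p = 0.0328). The 12-array fit called 10 of the 260 tiles of the region higher (3.85%) and 11 lower (4.23%), against 5.19% and 6.44% of all tiles; with populations as samples limma called 0. Within this region the higher tile with the largest difference, 0.35, lay at chr5:28945001-28950000 in an intron of 9530036O11Rik, with -0.34 and -0.28 in eGFP against 0.01 and 0.06 in tSBE(6+2)-Vp64.

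**Figure D2:**
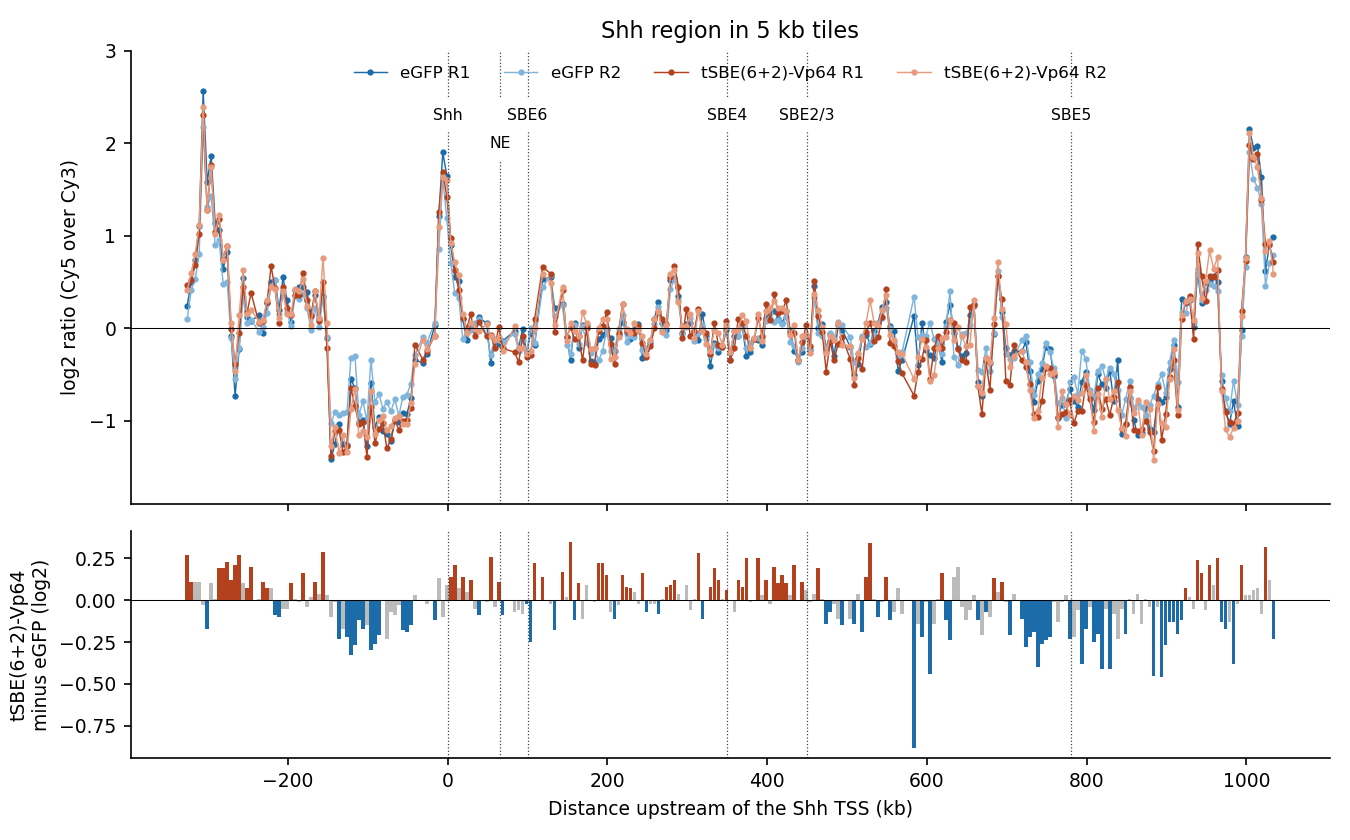
Top, log2 ratio (Cy5 over Cy3) in 5 kb tiles of the Shh region on the 4 arrays, by distance upstream of the Shh TSS, with dotted lines at the TSS, the enhancers and NE. Bottom, the difference between the conditions in each tile; red bars mark tiles where both tSBE(6+2)-Vp64 arrays lay above both eGFP arrays (67 tiles), blue bars those below (68 tiles) and grey bars overlap.

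Across all regions no tile passed the test. With R1 and R2 averaged to 1 sample and the spread taken from the 3 populations with a single target, limma called 0 of 963 tiles higher and 0 lower at an adjusted p of 0.05 (0% in each direction); the smallest adjusted p was 0.973, while 38 tiles had an unadjusted p under 0.05, 5 of them higher and 33 lower. On simulated data the same fit recovered 30% of 50 tiles shifted by 0.5 and 62% of 50 tiles shifted by 1, with 3 false calls. The simulated noise was independent between samples and held no slide effect, so these shares may not carry over to the present arrays. When the 12 arrays were taken as separate samples, which counts R1 and R2 of a culture as independent, limma called 50 tiles higher (5.19%) and 62 lower (6.44%) at the same threshold. A fit on the 4 arrays alone called 1 tile, lower, and 175 tiles had an unadjusted p under 0.05 in it. The tile it called lay at chr5:29375001-29380000, between SBE2/3 and Rnf32, and was singled out after its value had been seen. Its 9 probes gave 0.13 and 0.34 on the eGFP arrays and -0.73 and -0.55 on the tSBE(6+2)-Vp64 arrays. The difference of -0.88 was the lowest of all tiles, and was -0.56 after loess and scale normalization and -0.59 after normexp background correction. Its adjusted p was 0.0444 with 4 arrays, 0.058 with 12 arrays and 0.973 with populations as samples; tShh-Vp64 R1, at -0.68, was also low in this tile while R2 of that population had 0.33.

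Tile values of the conditions ran close to a line. Across the 963 tiles, which are not independent, the correlation of the population means was 0.981, and those of R1 with R2 were 0.989 in eGFP and 0.987 in tSBE(6+2)-Vp64. The differences had a median of -0.01 and an SD of 0.17. The range of values was wider in the mean of the tSBE(6+2)-Vp64 arrays, with an SD across tiles of 0.809, than in that of the eGFP arrays, 0.723. The major-axis slope was 1.12. By array, the SD was 0.812 on both tSBE(6+2)-Vp64 arrays. The eGFP arrays differed from each other in the same respect, with an SD of 0.793 on R1 and 0.656 on R2. Against eGFP R1 the slope of either tSBE(6+2)-Vp64 array was 1.02, and against eGFP R2 it was 1.25 (R1) and 1.24 (R2). Loess and scale normalization gave a slope of 0.86, and the authors' combined ratios gave 1.03.

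**Figure D3:**
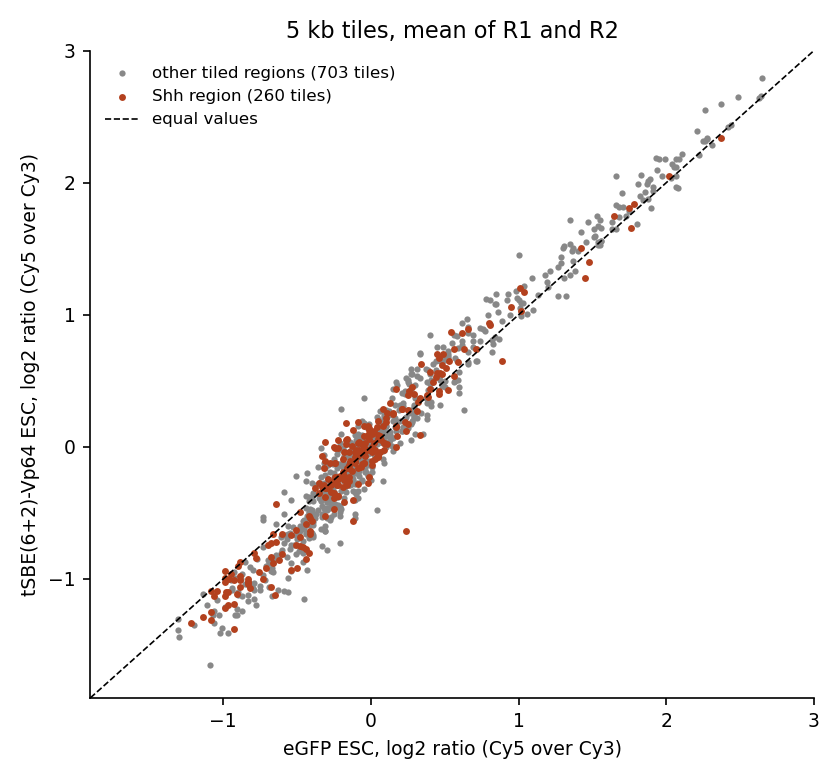
Mean log2 ratio (Cy5 over Cy3) of R1 and R2 in tSBE(6+2)-Vp64 against eGFP mESCs for each of 963 tiles of 5 kb; red points are the 260 tiles of the Shh region and the dashed line marks equal values. Points follow the line, with low tiles somewhat below it and high tiles somewhat above, and the lone red point far below it is the tile with a difference of -0.88.

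Low tiles had mostly negative differences, and higher tiles more often positive ones. Tiles were grouped by their mean in the 3 populations with a single target, which does not use the arrays compared. Of 154 tiles under -0.5, 2 lay higher and 92 lower (59.7%) on both arrays, with a median difference of -0.20. Median levels in this class were -0.85 and -0.68 on the eGFP arrays and -0.96 and -0.95 on the tSBE(6+2)-Vp64 arrays. From -0.5 to 0, 76 of 379 tiles lay higher (20.1%) and 132 lower, and from 0 to 1, 148 of 333 lay higher (44.4%) and 46 lower. In the 97 tiles at 1 or more, 18 lay higher (18.6%, below the 25.3% of all tiles) and 0 lower, and the median difference was 0.08. There the eGFP arrays had 1.90 and 1.61 and the tSBE(6+2)-Vp64 arrays 1.81 and 1.85, so that eGFP R1 exceeded both. The division by the slope used 1.20, the slope on the mean of the other 4 ESC populations. It turned the median of the high class to -0.24 and that of the low class to -0.04. Because 1.20 exceeds the major-axis slope of 1.12 on eGFP alone, this division lowers high tiles relative to eGFP by construction. Loess and scale normalization gave medians of -0.30 and 0.05.

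**Figure D4:**
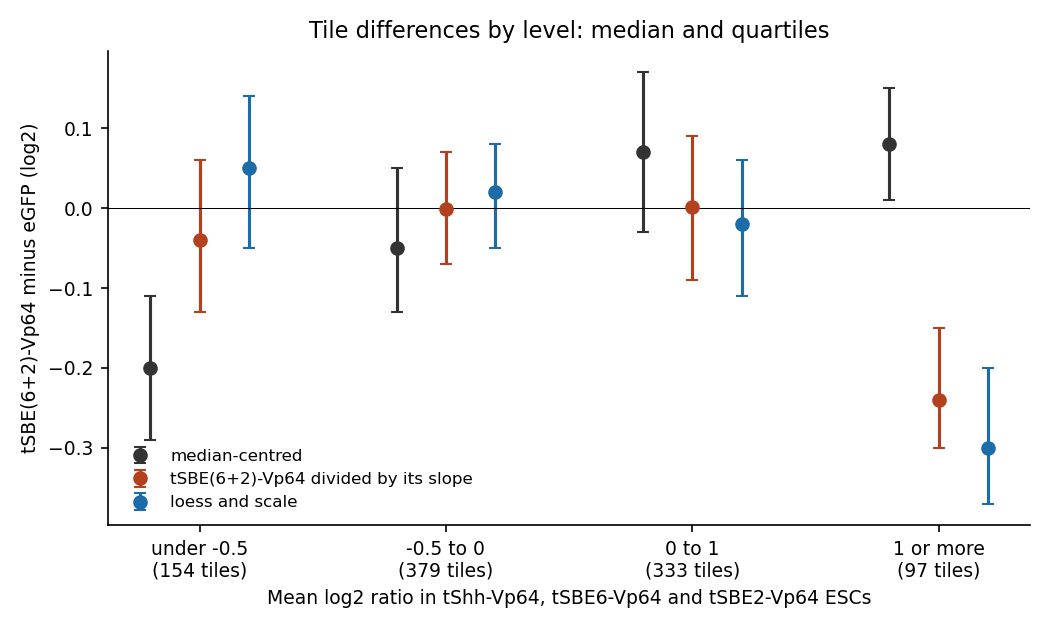
Difference in log2 ratio between tSBE(6+2)-Vp64 and eGFP mESCs (vertical axis) in 4 classes of 5 kb tiles by their mean in tShh-Vp64, tSBE6-Vp64 and tSBE2-Vp64 mESCs; points are medians and bars quartiles under 3 scalings. With median-centred values the median runs from -0.20 in the lowest class to 0.08 in the highest, and both other scalings place the highest class below 0, at -0.24 and -0.30.

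Promoters of developmental genes had mostly small positive differences, which division by the slope and loess and scale normalization turned negative for most groups and normexp did not, and promoters of broadly expressed genes had mostly negative ones. Of 80 promoter windows, 14 lay higher (17.5%) and 25 lower (31.2%) on both arrays, with a median difference of 0.03 and a range of -0.35 to 0.34. Windows of neighbouring genes overlap in places and share probes, as within the Hoxd cluster, so these counts are not of independent windows. Where values under the other scalings are given below, loess and scale normalization comes first and division by the slope second. Division by 1.20 lowers every positive value and so moves high promoters down by construction. This divisor also exceeds the major-axis slope of 1.12 on eGFP alone. In the Hoxd cluster, which patterns the limbs and trunk, 2 of 10 promoters lay higher, Hoxd3 and Hoxd1, and 0 lower. The 10 include that of the neighbouring gene Evx2. The median difference was 0.11, 0.08 with normexp, but -0.34 after loess and scale normalization and -0.28 after division by the slope. The promoter of Hoxd1 had 1.98 and 1.85 on the eGFP arrays and 2.13 and 2.12 on the tSBE(6+2)-Vp64 arrays. Hoxd13, a regulator of digit formation, had 2.48 and 2.06 against 2.36 and 2.45, so its ranges overlapped.

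Among 6 ventral neural genes that hedgehog signalling induces, 2 lay higher (33.3%) and 0 lower, against 17.5% and 31.2% of all promoters. Their median difference of 0.17 was 0.14 with normexp, -0.20 after loess and scale normalization and -0.15 after division by the slope. Ptch1, which encodes the hedgehog receptor, had 1.66 and 1.46 in eGFP and 1.71 and 1.86 in tSBE(6+2)-Vp64, a difference of 0.22 that both of these scalings turned to -0.14 and -0.08. Nkx6-2, a homeobox gene of ventral progenitors, had 1.03 and 0.77 against 1.11 and 1.13. Foxa2, the regulator of the floor plate, had 1.94 and 1.52 against 1.92 and 1.99; its arrays overlapped despite a difference of 0.23. The differences at Nkx2-2 (0.03), Nkx6-1 (0.05) and Olig2 (0.12) also came with overlap.

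Of 11 other neural regulators, 3 lay higher (27.3%), Sox4, Nes and Sox2, and 0 lower, against 17.5% and 31.2% of all promoters. Sox4, which encodes a SOX factor of differentiating neurons, had 0.37 and 0.24 on the eGFP arrays and 0.55 and 0.70 on the tSBE(6+2)-Vp64 arrays; this difference of 0.32 was positive under both other scalings, 0.17 and 0.21. At Sox2, which encodes a factor shared by stem cells and neural progenitors, the arrays had 0.07 and 0.06 against 0.21 and 0.17. Nes, which encodes nestin, differed by 0.14, and by -0.04 and -0.02 under the other scalings. The median over the 11 promoters was 0.13, and 0.05 with normexp, but -0.23 and -0.17 under those scalings.

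Among the 4 signalling genes 2 lay higher (50%), Bmp4 and Fgf3, and 0 lower, against 17.5% and 31.2% of all promoters. The group's median of 0.13 was 0.12 with normexp and -0.04 and -0.02 under the other scalings. The Bmp4 promoter had 0.18 and 0.14 in eGFP and 0.41 and 0.39 in tSBE(6+2)-Vp64, a difference of 0.24 that was 0.14 and 0.18 under the other scalings. In the populations with a single target it was 0.02 to 0.11, and in NPCs 2.75. The tile that starts just beside its TSS and holds the sequence shown above, chr14:47010001-47015000, had the largest higher difference of all tiles, 0.49, with -0.19 and -0.22 in eGFP and 0.28 and 0.29 in tSBE(6+2)-Vp64; the 12-array fit gave it an SE of 0.05 (limma adjusted p = 0.00168) and the fit by populations an adjusted p of 0.973. In that tile 61.54% of Cy3 probe values were well above background in tSBE(6+2)-Vp64 and 90.38% in eGFP. Fgf3, which encodes a fibroblast growth factor, lay higher by 0.15 but was at -0.03 and -0.02 under the other scalings, while Fgf15 and the BMP antagonist Nog overlapped.

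The pluripotency-linked genes were divided, with a median of -0.09 that was 0.00 and -0.01 under the other scalings. Pou5f1, which encodes OCT4, had -0.52 and -0.40 in eGFP and -0.66 and -0.60 in tSBE(6+2)-Vp64, a difference of -0.17 that was -0.03 and -0.06 under the other scalings. Nanog lay lower by 0.11 with median centring, a sign that both other scalings turned (0.07 and 0.02), and Fgf4 and Myc were also lower, with differences of -0.07 and -0.17. Dppa3, a germ cell and oocyte factor that lies beside Nanog, went the other way, with 0.71 and 0.66 against 0.99 and 1.05; its difference of 0.34 was the largest of the 80 promoters and was 0.09 and 0.17 under the other scalings. Thus 1 of these 6 promoters lay higher (16.7%) and 4 lower (66.7%), against 17.5% and 31.2% of all promoters. Of all tiles at -0.5 to 0 in the populations with a single target 34.8% lay lower, and of those under -0.5 59.7%. Igf2 and H19, neighbouring imprinted genes, both lay higher, by 0.18 and 0.08, although Igf2 was at -0.09 and -0.05 under the other scalings. Of 3 blood regulators, Klf1 (-0.11) and Gata1 (-0.08) lay lower and Irf4 overlapped.

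Broadly expressed genes had a median difference of -0.17, which was -0.04 and -0.09 under the other scalings. Gapdh, which encodes a glycolytic enzyme, had -0.54 and -0.44 in eGFP and -0.85 and -0.84 in tSBE(6+2)-Vp64, a difference of -0.35, and -0.19 and -0.21 under the other scalings. The promoter of Actb, which encodes cytoplasmic actin, had -0.38 and -0.27 against -0.52 and -0.51. Of 10 such promoters 5 lay lower (50%), Gapdh, Actb, Mrpl51, Ncapd2 and Ncaph2. The windows of Mrpl51 and Ncapd2 nearly coincide, so these are not separate observations. Only 1 lay higher (10%), Fancc, a DNA repair gene that lies beside Ptch1. The cohesin genes Rad21 and Smc3 overlapped, and both scalings turned their negative differences positive. Around Shh itself, 0 of 9 promoters lay higher and 3 lower, near the 31.2% of all promoters. They were Rnf32 (-0.25, and -0.09 and -0.14 under the other scalings), Lmbr1 (-0.17, and -0.05 and -0.07) and Nom1 (-0.06, and turned to 0.05 and 0.01). The promoters of En2, Mnx1, Cnpy1, Rbm33, 9530036O11Rik and Shh overlapped. Across the remaining 19 promoters, which fell in no group, 1 lay higher (5.26%) and 11 lower (57.9%), against 17.5% and 31.2% of all promoters.

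**Figure D5:**
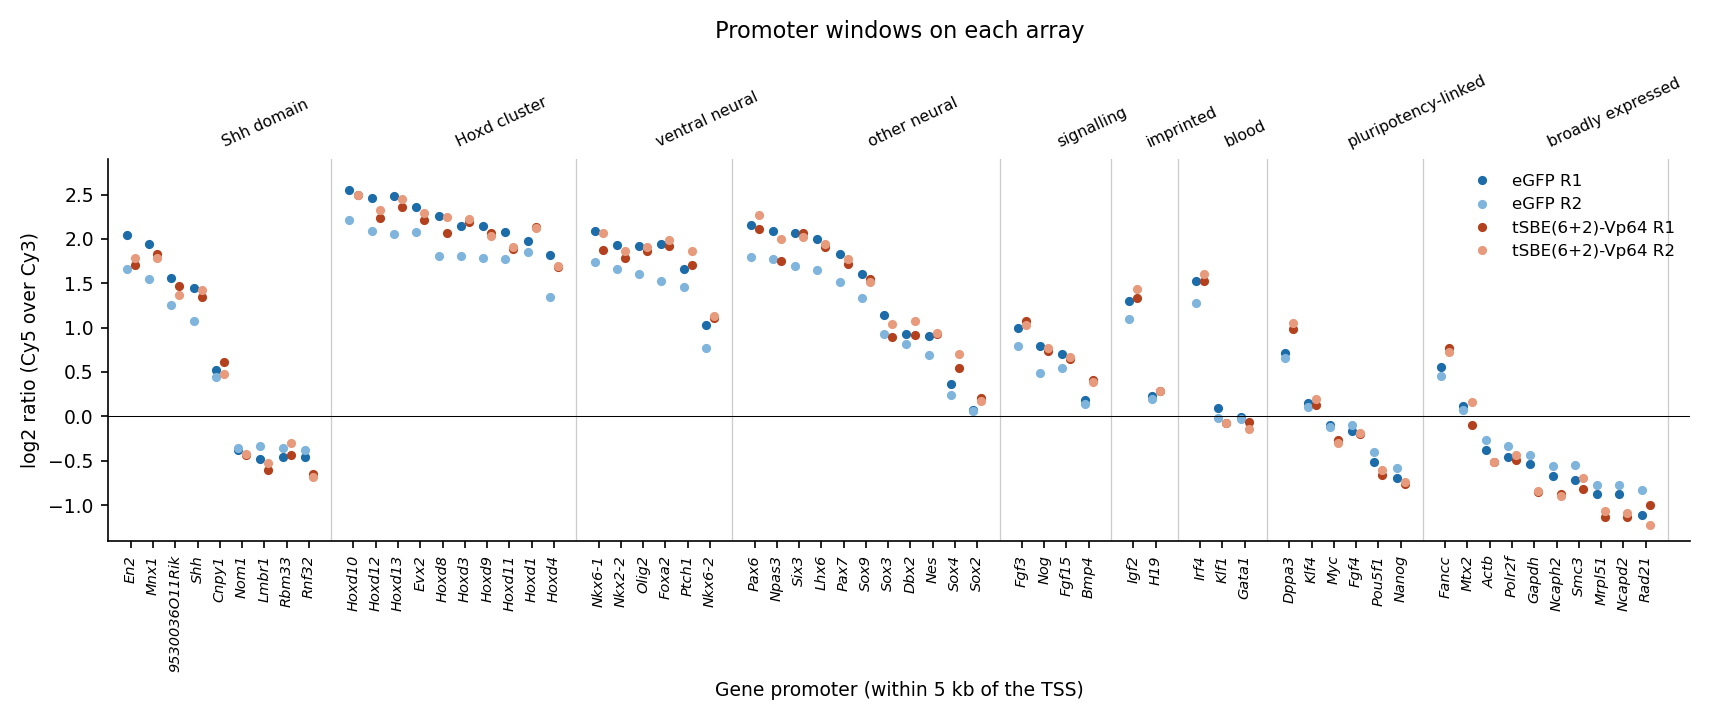
Log2 ratio (Cy5 over Cy3) in promoter windows within 5 kb of the TSS on the 4 arrays, for 61 genes grouped by role and ordered by their eGFP mean. At all 10 genes of the Hoxd cluster, Evx2 included, and all 6 ventral neural genes eGFP R2 is the lowest of the 4 arrays. At Gapdh, Ncaph2, Mrpl51 and Ncapd2 both tSBE(6+2)-Vp64 arrays lie lowest.

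The high-ratio block at Shh had the same extent in both populations at a threshold of 1, but not under every setting. Blocks were runs of 2 kb tiles whose log2 ratio reached 1 on R1 and on R2 of a population, joined across a single missing tile. Each population had a block at chr5:28782001-28796000, 14 kb long, over Shh and the start of 9530036O11Rik. It was 20 kb in eGFP and 26 kb in tSBE(6+2)-Vp64 at a threshold of 0.5, 6 and 10 kb at 1.5, 10 and 15 kb with 5 kb tiles, 14 and 10 kb in the authors' combined ratios, and 8 and 10 kb with the filter on dim and saturated probes. Over the whole array eGFP had 38 blocks covering 528 kb and tSBE(6+2)-Vp64 45 blocks covering 602 kb; of these, 37 eGFP blocks and 34 tSBE(6+2)-Vp64 blocks overlapped a block of the other population. The tiles at or above 1 in both, 233 of 2289, were 97.5% of those in eGFP and 85.3% of those in tSBE(6+2)-Vp64. In the Hoxd cluster, tSBE(6+2)-Vp64 had a single block of 134 kb where eGFP had blocks of 72, 48 and 4 kb. The order of the totals depended on the processing: without eGFP R2 the eGFP blocks covered 612 kb, and after loess and scale normalization eGFP had 538 kb and tSBE(6+2)-Vp64 482 kb.

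Set against the other tiled regions, Shh lay near the middle, with each array centred on a median that includes the probes of the Shh region. Of the 39 regions, 9 had a mean difference with both tSBE(6+2)-Vp64 arrays above both eGFP arrays, and all 9 had an eGFP mean above 0. In 12 regions both lay below, 11 of them with an eGFP mean below 0, and the Shh region was among the 18 that overlapped, with a mean of -0.10 and -0.08 in eGFP and -0.13 and -0.09 in tSBE(6+2)-Vp64. The largest mean difference was at Irf4, a lymphoid regulator, with 0.86 and 0.71 against 0.97 and 1.02. At Igf2, 14 of 21 tiles lay higher and 0 lower, the highest count outside the long Npas3, Pax6 and Shh regions. The most negative mean differences were those of Actb (-0.28, 9 of 11 tiles lower) and Gapdh (-0.28, 10 of 11 tiles lower), followed by Pou5f1 (-0.27, 3 of 3 tiles lower). Over all tiles 25.3% lay higher and 28% lower. By level in the populations with a single target, 44.4% of tiles at 0 to 1 lay higher and 59.7% of tiles under -0.5 lay lower.

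The tiles with the largest differences lay, in most cases, outside the Shh region. After the Bmp4 tile, the higher ones were at Foxa2 (0.46, and 0.37 at its TSS), Igf2as (0.44), an intron of Npas3 (0.42), Nkx2-2as (0.39), Sox4 (0.38), Pax6os1 (0.37) and Sox2ot (0.35). Loess and scale normalization left these differences at 0.03 to 0.28, apart from Nkx2-2as, where it gave -0.10. The lower ones, after the tile between SBE2/3 and Rnf32, were in an intron of Sox2ot (-0.70), at Lnp (-0.55 and -0.54), Fbxl18 (-0.52), another intron of Npas3 (-0.52), Mtx2 (-0.50), beside Fscn1 (-0.50) and Actb (-0.48), and at Lmbr1 (-0.46). At Lnp, a gene beside the Hoxd cluster, the first of these had -1.21 and -0.97 in eGFP and -1.76 and -1.53 in tSBE(6+2)-Vp64, and loess and scale normalization turned its difference to 0.08. In that tile 22.12% of Cy3 probe values were well above background in tSBE(6+2)-Vp64 and 67.31% in eGFP, and its GC content was 35.80%. Across all tiles the difference had a correlation of 0.202 with this Cy3 share in tSBE(6+2)-Vp64, of 0.233 with GC content and of 0.491 with the level in the populations with a single target (963 tiles that share the same arrays); their part in the differences was not tested. At the Fbxl18 tile, which holds 5 probes, eGFP R1 had -0.67 and R2 0.25 against -0.79 and -0.67 in tSBE(6+2)-Vp64, so the difference rests on eGFP R2. Only 7 tiles differed by 0.5 or more, all of them lower and none with overlap.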

How the data were processed

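The authors deposited intensity values of each channel, Cy3 and Cy5, which were extracted as separate single-colour scans (Agilent Feature Extraction 11.5.1.1) with probes placed on mm9. They also deposited normalized log2 ratios with R1 and R2 combined, whose correlation across probes with log2 Cy5 over Cy3 was 0.898 (tSBE(6+2)-Vp64) and 0.925 (eGFP). The study's methods state, for arrays of another maker, loess correction of dye bias and scaling of the log2 ratios in limma, and the submitters' notes on the present arrays name limma alone.

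Control spots and outlier-flagged spots (436 to 1049 probes on the 4 arrays) were left out, and log2 ratios of the processed signals were centred on each array's median. The number of arrays limits the precision. Probes were averaged in 5 kb tiles (at least 5 probes), in promoter windows (within 5 kb of the TSS, at least 10 probes) and within 10 kb of the enhancers and NE, at the positions that the study gives relative to Shh. Tiles were tested with limma 3.58.1 (R 4.3.3; lmFit, eBayes, Benjamini-Hochberg over 963 tiles): 6 populations as samples, tSBE(6+2)-Vp64, eGFP and NPC with their own means, and the 3 populations with a single target as the group that gives the spread. The lone samples are assumed to vary like those 3. The fit was tested on simulated data. Windows, levels and blocks have no test. Normexp used median and background median signals. Python 3.11.15 and pandas 2.3.3 did the rest.

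The named tiles are the 10 highest and 10 lowest without overlap. The members, gene groups and other lists were chosen with earlier results of these data known, and Sox2, Sox3, Nanog, Klf4, Dppa3, Pax6, Pax7, the ventral neural genes other than Ptch1, Lhx6, the Fgf ligand genes, the blood genes, Mnx1 and the broadly expressed genes other than Actb and Gapdh were added after the array's content and values had been seen. The stretch 16 to 17 kb upstream of Shh, the tiles described near SBE6 and in Lmbr1 and the region examples were also chosen after their values had been seen. Sox10, Nop2 and Elp4 had too few probes at the TSS. Shared replicate numbers did not pair the arrays: deviations of same-numbered arrays correlated at -0.25 to 0.43 over 15 pairs of populations. One promoter sequence is not reported here.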

Additional observations from a re-analysis of the deposited data

How the results depend on the processing

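No tile passed the population fit under median centring, loess and scale normalization, normexp, the authors' combined ratios, the filter on dim and saturated probes, kept outlier flags, 2 kb tiles, no probe minimum, division by the slope or the mean of the 4 other ESC populations as control; 26 to 125 tiles had an unadjusted p under 0.05 in these fits (limma). Leaving out a replicate gave 0 to 2 calls. With 10 kb tiles the tile over the one between SBE2/3 and Rnf32 was called lower, with a difference of -0.88. Without R1 of every population the tile between SBE2/3 and Rnf32 itself (-0.89) and the one at the Fbxl18 TSS (-0.92) were. At Fbxl18 the call rests on eGFP R2, since R1 lay near the tSBE(6+2)-Vp64 arrays. The median total degrees of freedom were 1010 and 330 in these limma fits, and 9.99 in the main fit. At such values nearly the same spread was used for all tiles, so these calls do not rest on the spread of the tiles themselves. Arrays as separate samples gave 112 calls with no replicate block, 115 with the replicate block and 1 on the 4 arrays alone; the numbers share no stated culture, so the block is given as a value only.

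Tiles without overlap, 244 higher and 270 lower, were 548 and 652 with 2 kb tiles, 129 and 148 with 10 kb tiles, where the number of tiles differs, and 0 and 7 when a difference of 0.5 was asked as well. Leaving out an array gave 300 to 404 higher and 330 to 429 lower. The filter on dim and saturated probes gave 185 higher and 320 lower. The slope of 1.12 moved to 0.86 with loess and scale normalization, and was 1.02 to 1.24 without an array. Blocks at a threshold of 0.5 numbered 67 (eGFP, 886 kb) and 83 (tSBE(6+2)-Vp64, 1026 kb), and the block at Shh was 26 kb in tSBE(6+2)-Vp64; at 1.5 they covered 334 and 392 kb, with 6 kb at Shh in eGFP. Blocks of 5 kb tiles numbered 23 and 26. With the probe filter the Shh block of eGFP was 8 kb.

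The Shh promoter difference of 0.12 was -0.14 with loess and scale normalization and -0.11 after division by the slope. For SBE6 (-0.08) the values were -0.05 with loess and scale, -0.10 in the combined ratios, -0.12 with the probe filter, -0.04 after division by the slope, -0.13 and -0.06 with windows of 0.5 and 2 times the width, and -0.10 as a median. SBE4 gave 0.05 and 0.08 with those widths. SBE2/3 gave -5.6e-05 with normexp, -0.04 with the filter, 0.03 after division, and 0.04 and 0.07 with those widths. At SBE5 loess and scale reversed the sign, to 0.05, and the combined ratios, division by the slope and the narrow window gave -0.04, -0.01 and -0.22. NE gave -0.0018 with the filter, 0.04 after division, 0.06 with either width and 0.0018 as a median.

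Among promoters without overlap, loess and scale normalization reversed Fgf3 (-0.03), Hoxd1 (-0.23), Hoxd3 (-0.22), Igf2 (-0.09), Nes (-0.04), Nkx6-2 (-0.01), Ptch1 (-0.14), Nanog (0.07) and Nom1 (0.05). Division by the slope reversed Fgf3 (-0.02), Hoxd1 (-0.15), Hoxd3 (-0.14), Igf2 (-0.05), Nes (-0.02), Ptch1 (-0.08), Nanog (0.02) and Nom1 (0.01). The narrow window reversed Fgf4 (0.02), H19 (-0.05) and Nom1 (0.04), and the median over probes Sox2 (-0.01). Division by the slope narrows the range of tSBE(6+2)-Vp64 by construction. Its divisor of 1.20 exceeds the major-axis slope of 1.12 on eGFP, so that high promoters are lowered relative to eGFP. Why loess and scale normalization brought the slope of tSBE(6+2)-Vp64 on eGFP under 1 was not tested. Slide and condition cannot be told apart in the width of the range.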
